A study of Mus musculus with 14 samples.

Results

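The microRNAs miR-10 and miR-196 are encoded inside the Hox gene clusters, and their levels were followed across sorted crypt cells of the mouse small intestine. Members were all entries of the deposited miRNA table that start with the name of miR-10a, miR-10b, miR-196a-1, miR-196a-2 or miR-196b and carry no suffix for a shifted start. The rule found 6 entries of 2030 in all, of which 534 carry no such suffix: miR-10a-5p, miR-10a-3p, miR-10b-5p, the entries of miR-196a-5p from its 2 hairpins, and miR-196b-5p. The table writes the main ones as mmu-mir-10a-5p, mmu-mir-10b-5p, mmu-mir-196a-1-5p and mmu-mir-196a-2-5p. Of the 6 entries, 5 reached 10 in 3 or more libraries and could be tested, and miR-196b-5p was listed at 0 in all 14 libraries. Another 21 entries are shifted forms of the members, and 3 of them passed the same filter.

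Small RNA was sequenced from the intestine of C57BL/6J mice carrying Sox9-eGFP, a transgene whose green fluorescence reports how active the Sox9 gene is. The groups were non-sorted cells (Non-sorted, 2 libraries) and cells sorted by fluorescence as High, Negative, Sublow and Low (3 libraries each), all from this strain with this transgene and with no treatment named. From work with this mouse line, enteroendocrine cells are thought to lie mainly in High, differentiated cells in Negative, dividing progenitors in Sublow and stem cells of the crypt in Low. The labels name neither the age of the animals, the segment of the small intestine, nor whether the libraries of a group came from separate animals, so the spread behind every p-value is that between libraries and may be technical. The labels give all libraries of a replicate number the same code, and do not say what the code stands for. Fluorescence reports the transgene and not the cell type itself, and in such bulk samples fewer cells of a type and less RNA per cell cannot be told apart.

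Hox genes encode transcription factors that set position along the body axis, and in the gut they are expressed in domains along its length. miR-10 lies next to the Hox4 genes and miR-196 next to the Hox9 genes, and both families repress mRNAs of Hox genes, miR-196 for instance that of Hoxb8. A miRNA pairs with its targets mainly through its seed, bases 2 to 8 from the 5′ end, so miRNAs with a shared seed can bind many of the same mRNAs. In the RefSeq table of assembly GRCm38.p6, the miR-10a hairpin lies on chromosome 11 within the span of Hoxb3, between Hoxb5 and Hoxb4, and the miR-10b hairpin on chromosome 2 within the spans of Hoxd3 and Hoxd4. The first miR-196a hairpin lies on chromosome 11 between Hoxb13 and Hoxb9, the second on chromosome 15 between Hoxc10 and Hoxc9, and the miR-196b hairpin on chromosome 6 between Hoxa9 and Hoxa10. miR-10a and the first miR-196a hairpin are thus both in the HoxB cluster.

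The mature sequences are shown because the members differ so little that a single base decides which entry a read belongs to. They are from RefSeq (GRCm38.p6), written 5′ to 3′, with the seed in capitals. miR-99a and miR-99b are relatives of miR-10 outside the Hox clusters and are shown for their seed.

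miR-10a-5p: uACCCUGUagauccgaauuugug
miR-10b-5p: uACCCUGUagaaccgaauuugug
miR-196a-5p: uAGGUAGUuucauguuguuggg
miR-196b-5p: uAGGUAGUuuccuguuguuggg
miR-99a-5p: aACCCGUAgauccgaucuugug
miR-99b-5p: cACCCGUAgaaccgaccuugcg

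miR-10a-5p and miR-10b-5p share the seed ACCCUGU and differ by U12A, counted from 1 at the 5′ end of miR-10a-5p. miR-196a-5p and miR-196b-5p share the seed AGGUAGU and differ by A12C. The hairpins of miR-196a give the same mature sequence, so reads of miR-196a-5p cannot be assigned to the HoxB or the HoxC copy. The miR-196 seed is also found in let-7a-5p, moved by 1 base (bases 3 to 9), while the seed of miR-99 and miR-100, ACCCGUA, is not that of miR-10. How the authors assigned reads with a mismatch is not given in the sources used here.

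Values are RPM, reads of an entry per 1000000 reads given to any miRNA entry of the library. The libraries held an estimated 1.89 to 16.4 M such reads (M, 1000000 reads; median 4.997). The smallest value above 0 stood for 9.99 to 10.9 reads, so a value of 0 means fewer than about 10 reads and not absence. Differences are first group minus second group on the log2(RPM + 1) scale, which understates changes at low values. They come from a limma fit to the 14 libraries, with Benjamini-Hochberg adjustment over all 588 tested entries and a threshold of 0.05. Of the 588 entries, 72.3% differed among the sorted populations at this threshold, so a single call is common here. The gut epithelial markers miR-192, miR-194, miR-215 and the miR-200 family (8 of 8 in the table) summed to 197246 to 230584 RPM in High, 558463 to 559871 RPM in Negative, 424333 to 437263 RPM in Sublow and 215198 to 244726 RPM in Low. They had the highest sums in the Non-sorted and Negative libraries, at 490391 to 582433 RPM in Non-sorted. These sums were carried largely by miR-215-5p, at 335102 to 345077 RPM in Negative and 36188 to 47543 RPM in High. The miR-200 family went the other way, with miR-200a-3p, for example, at 8105 to 10007 RPM in Negative and 25018 to 30316 RPM in High. Of the 8 markers, 5 were higher in High than in Negative and 2 lower at the threshold. Since each library has a fixed total, values were also rescaled by median ratios, which moved Negative vs Low by 0.88 on the log2 scale, High vs Negative by -0.55, Negative vs Sublow by 0.48, Sublow vs Low by 0.40, High vs Low by 0.33, Non-sorted vs Negative by -0.086 and High vs Sublow by -0.071.

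The members behaved in 2 ways. miR-10b-5p differed less between the libraries of a population than between populations, and it was highest in Low and lowest in Negative. miR-10a-5p and miR-196a-5p differed widely between libraries of the same population, and in each sorted population they were highest in replicate 3.

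**Figure D1:**
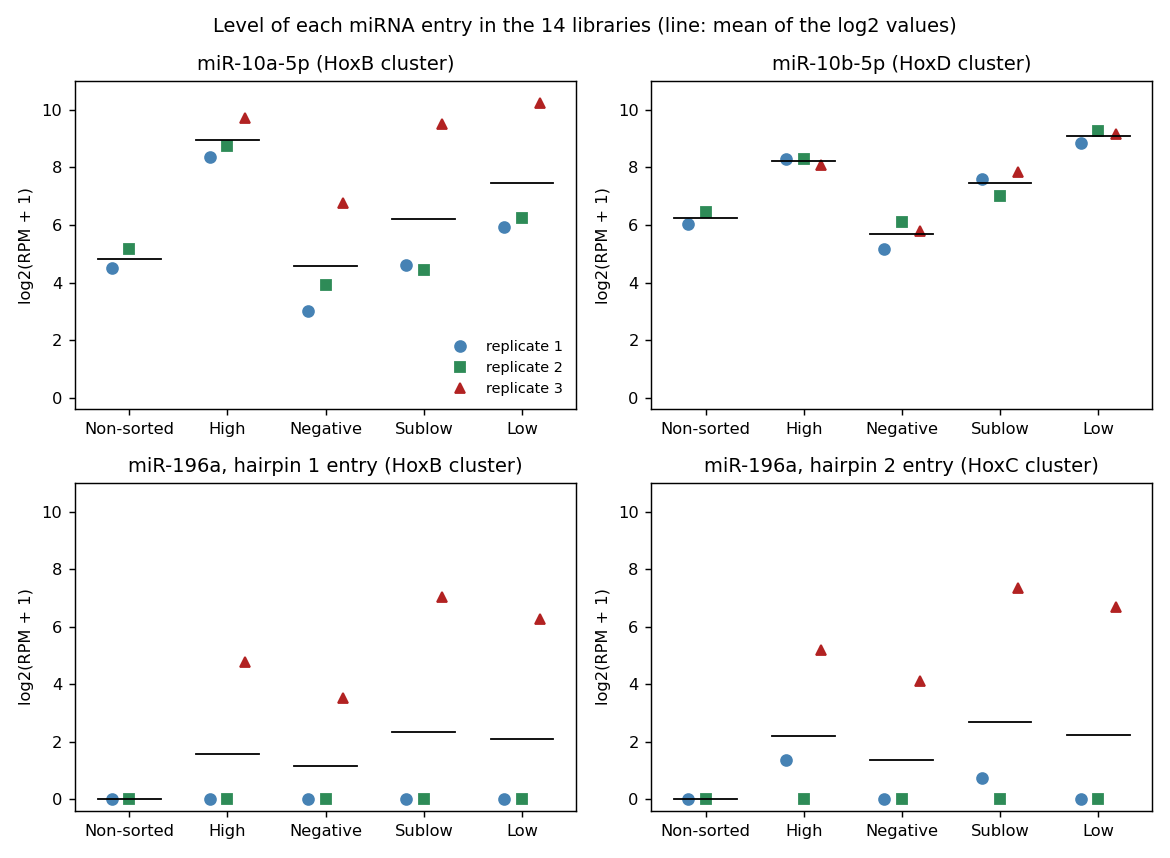
Level of miR-10a-5p, miR-10b-5p and both miR-196a-5p entries as log2(RPM + 1) in the Non-sorted, High, Negative, Sublow and Low libraries, with 1 point per library, the symbol giving the replicate number and a line at the mean of the group. The miR-10b-5p points of a population lie together, whereas the replicate 3 points of miR-10a-5p and miR-196a-5p lie above replicates 1 and 2 in all 4 sorted populations.

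miR-10b-5p, the HoxD-cluster copy, was at 314, 309 and 267 RPM in High replicates 1, 2 and 3, at 35.02, 68.0 and 53.7 RPM in Negative, at 191, 128 and 226 RPM in Sublow and at 465, 615 and 565 RPM in Low. The order of the means was Low (548 ± 76.5 RPM), High (297 ± 25.5 RPM), Sublow (181 ± 49.6 RPM) and Negative (52.2 ± 16.5 RPM; SD, n = 3 each). No library of one sorted population overlapped with one of another. The share of all entries separated in this way was not counted, and 72.3% of entries differed among the sorted populations in limma. In the Non-sorted cells miR-10b-5p was at 64.7 and 85.9 RPM (75.3 ± 14.998, SD, n = 2), against the 3 Negative values above, which overlap with them.

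miR-10b-5p differed among the 4 sorted populations (F = 62.7, adjusted p = 1.51e-06, limma). It was lower in Negative than in Low, at a log2 difference of -3.41 (adjusted p = 2.67e-07), and lower in Sublow than in Low, at -1.62 (adjusted p = 5.1e-04). It was also lower in Negative than in Sublow, at -1.79 (adjusted p = 2.28e-04), and higher in High than in Negative, at 2.53 (adjusted p = 3.86e-06). After median-ratio rescaling these 4 differences were -2.54, -1.22, -1.32 and 1.99, all still past the threshold. The 2 smaller differences did not hold as well. High was lower than Low at a log2 difference of -0.88 (SE 0.26, adjusted p = 0.0255), which was -0.55 after rescaling (adjusted p = 0.156). High was higher than Sublow at 0.74 (adjusted p = 0.0317), which was 0.67 after rescaling (adjusted p = 0.0530). The call between High and Low was also lost without High replicate 3, Low replicate 2 or Low replicate 3 (adjusted p = 0.0776, 0.0831 and 0.0726). That between High and Sublow was lost without High replicate 1 or 2 or Sublow replicate 1 or 2 (adjusted p = 0.0792, 0.0749, 0.0546 and 0.116). High therefore could not be placed firmly against its neighbours in the order, Low and Sublow. Between Non-sorted and Negative, miR-10b-5p differed by 0.56 (SE 0.29, adjusted p = 0.482).

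The lane codes in the labels were not spread evenly over the groups. High replicates 1 and 2 and Low replicates 2 and 3 carry the code 0 with the word Combo, which may stand for combined lanes, so whether these 4 libraries shared a lane is not known. Among them, the miR-10b-5p difference of High from Low was -0.92 (2 libraries each). Within lane 5, Negative differed from Low by -3.09 (1 library each), Sublow from Low by -1.16 (2 libraries against 1) and Negative from Sublow by -1.93 (1 library against 2). Within lane 6 Negative differed from Sublow by -1.37 (2 libraries against 1). These differences had the same direction as those over all libraries. No code was shared by High and Negative or by High and Sublow libraries, so these pairs have no value within a code. With the code as a term in the fit, code 0 being one of its levels, the difference between High and Sublow was 0.33 (adjusted p = 0.662) and that between High and Low -0.92 (adjusted p = 0.0603).

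miR-10a-5p, the HoxB-cluster copy with the same seed, was at 332, 425 and 846 RPM in High replicates 1, 2 and 3. It was at 7.04, 14.2 and 108 RPM in Negative, at 23.7, 20.7 and 729 RPM in Sublow and at 59.4, 74.8 and 1199 RPM in Low. In replicates 1 and 2 it was highest in High, well above Low, and the pairs of values of the 4 populations did not overlap. These replicates were set apart after the values were seen, and the share of all entries separated in this way was not counted. In replicate 3 it was highest in Low, and Sublow was close to High. The Non-sorted libraries had 21.8 and 34.6 RPM, between the Negative libraries of replicates 1 and 2 and that of replicate 3.

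The means therefore carried wide errors: 534 ± 274 RPM in High, 43.1 ± 56.4 RPM in Negative, 258 ± 408 RPM in Sublow and 445 ± 654 RPM in Low (SD, n = 3 each). The order of the means was High, Low, Sublow and Negative, and the spread of each neighbouring pair was larger than the difference between them. Over the 4 sorted populations no difference passed (F = 3.24, adjusted p = 0.0793, limma), but with the replicate number as a block F was 17.99 (adjusted p = 5.19e-04). Same-numbered libraries counted as paired only in Sublow vs Low and High vs Sublow, so the F with a block does not replace the one without it. Of the 6 pairs, 1 passed, High above Negative by 4.38 on the log2 scale (SE 1.46, adjusted p = 0.0203). That call was lost without High replicate 3, Negative replicate 1 or Negative replicate 2 (adjusted p = 0.0602, 0.0774 and 0.0592), and with a term for the lane code, where the difference was -0.31 (adjusted p = 0.924). High and Low differed by 1.48 (SE 1.46, adjusted p = 0.503), Negative and Low by -2.90 (adjusted p = 0.1001), Sublow and Low by -1.27 (adjusted p = 0.519), High and Sublow by 2.75 (adjusted p = 0.133, and 0.00377 with the replicate number as a block) and Negative and Sublow by -1.62 (adjusted p = 0.456). Non-sorted and Negative differed by 0.26 (adjusted p = 1).

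Within the same replicate number the contrast of High with Low turned over. miR-10a-5p was 5.58 and 5.67 times as high in High as in Low in replicates 1 and 2, but 0.705 times in replicate 3. High over Sublow was 14.01 and 20.5 in replicates 1 and 2, against 1.16 in replicate 3, and High over Negative was 47.1, 29.8 and 7.83 in replicates 1, 2 and 3. Among the 4 libraries with the code 0, which may not share a lane, High was above Low by 0.32 on the log2 scale, but these are High replicates 1 and 2 and Low replicates 2 and 3. Within lane 5 Negative was above Low by 0.85 and Sublow above Low by 1.15, against their direction in all libraries, and there the only Low library is replicate 1.

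With replicates 1 and 2 alone, a choice made after the values were seen, miR-10a-5p differed among the sorted populations (F = 67.9, adjusted p = 1.03e-04, limma). High then exceeded Low by 2.47 on the log2 scale (adjusted p = 0.00649), Negative by 5.09 (adjusted p = 2.5e-05) and Sublow by 4.02 (adjusted p = 2.29e-04). Negative was lower than Low, at -2.61 (adjusted p = 7.99e-04), as was Sublow, at -1.55 (adjusted p = 0.0225). The miR-10b-5p difference of High from Low in these libraries was -0.78 (adjusted p = 0.179).

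**Figure D2:**
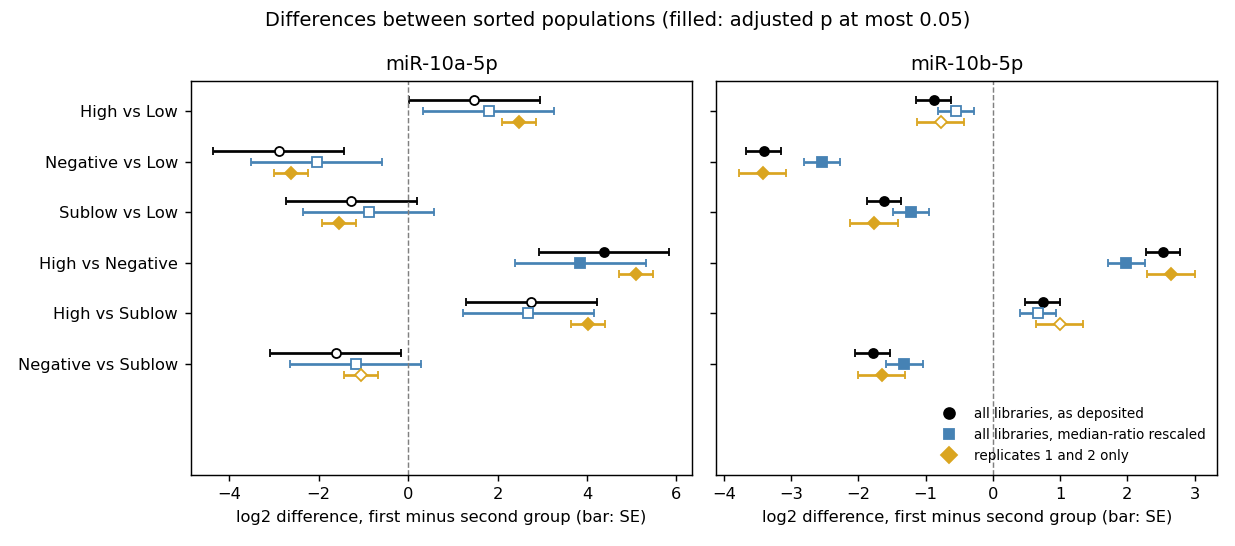
Differences of miR-10a-5p and miR-10b-5p between sorted populations as log2 differences, first minus second group, with bars for the SE, filled where the adjusted p was at most 0.05. Each comparison is given over all libraries as deposited, over all libraries after median-ratio rescaling, and over replicates 1 and 2 only. The bars of miR-10a-5p over all libraries are several times as wide as those of miR-10b-5p, and 1 of 6 differences as deposited is filled for miR-10a-5p.

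Against the background of all entries, 1 of 5 tested members, miR-10b-5p, differed among the 4 populations, where 72.3% of all entries did. Of the tested members, miR-10a-3p and both miR-196a-5p entries reached 10 RPM only in replicate 3 libraries, which leaves a wide spread within each population. Both miR-196a-5p entries also have the same mature sequence. The counts of members therefore do not show that they differ less often than other entries. In High vs Low 1 of 5 members was called (28.1% of all entries), in Negative vs Low 1 (66.0%), in Sublow vs Low 1 (34.7%), in High vs Negative 2 (66.3%), in High vs Sublow 1, or 2 with the replicate number as a block (50.5%), and in Negative vs Sublow 1 (35.5%). In Non-sorted vs Negative, 0 members passed in limma (3.74% of all entries), and 0 had an unadjusted p under 0.05. These pairs share libraries and are not independent of each other.

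The higher level in replicate 3 was set against that of all other entries. For every tested entry, the replicate 3 value minus the mean of replicates 1 and 2 was taken on the log2(RPM + 1) scale and averaged over the 4 sorted populations. This measure was chosen after the values were seen and has no test. The median over 588 entries was 0.020, and the entry of rank 15 from the top was at 1.02. The 6 highest values of the tested entries belonged to miR-196a-5p from hairpin 2 (5.56), miR-196a-5p from hairpin 1 (5.40), miR-10a-5p (3.40), the miR-10a-5p forms shifted by +1 and -1 (3.24 and 2.76) and miR-10a-3p (2.41), the other arm of the same hairpin. In all of these, replicate 3 was the highest library in each of the 4 sorted populations, as it was in 25 of 588 entries (4.25%). The next entries were a shifted form of miR-142-5p (2.27) and miR-150-5p (2.11), and for these replicate 3 was not the highest in every population. miR-10b-5p was at 0.13, rank 193 of 588. Both miR-196a-5p entries, miR-10a-3p and the -1 form of miR-10a-5p reached 10 RPM only in replicate 3 libraries, so they entered the tested entries only through the replicate in which they are high, and their ranks there follow in part from the filter. miR-10a-5p and its +1 form reached 10 RPM in 9 and 8 libraries of replicates 1 and 2, Non-sorted included. With the filter set on replicates 1 and 2 alone, also chosen after the values were seen, they had ranks 1 and 2 of 543 entries, and with no filter all 6 entries had the ranks 1 to 6 of 2030. The 6 entries are not independent of each other, since they come from 2 mature miRNAs and the opposite arm of 1 of them.

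**Figure D3:**
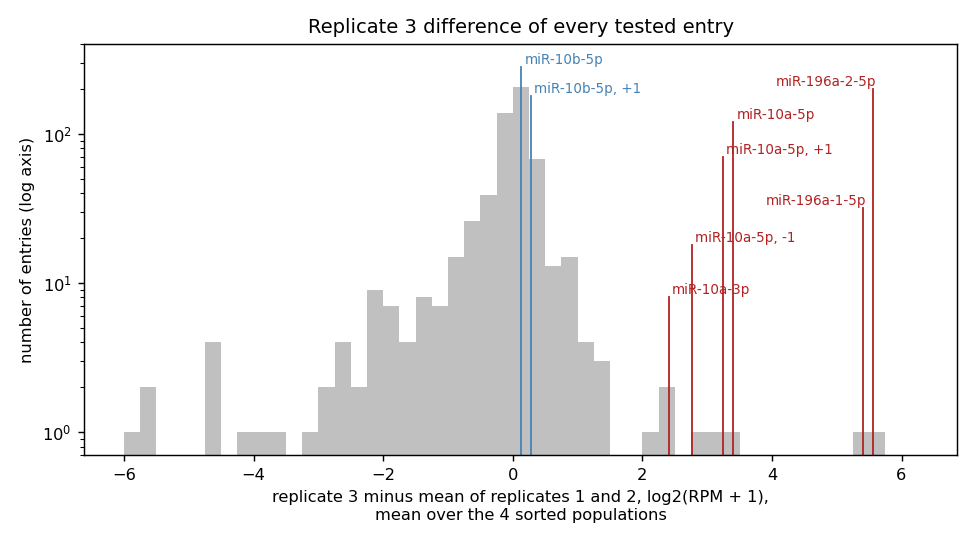
Number of tested entries (log axis) by their replicate 3 difference, the value in replicate 3 minus the mean of replicates 1 and 2 in log2(RPM + 1), averaged over the 4 sorted populations. All tested miR-10a and miR-196a entries lie at the far right, from 2.41 to 5.56, and both miR-10b-5p entries lie in the bulk near 0. 4 of those 6 entries passed the filter only through replicate 3.

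The size of the replicate 3 difference was unequal between populations. For miR-10a-5p, replicate 3 was 2.24 times the mean of replicates 1 and 2 in High, 10.2 times in Negative, 32.9 times in Sublow and 17.9 times in Low. The corresponding factors for miR-10b-5p were 0.858, 1.04, 1.42 and 1.05. The increase was thus smallest in High, the population with the most miR-10a-5p in replicates 1 and 2, and largest in Sublow. In replicate 3 alone, miR-10a-5p spanned 108 to 1199 RPM, with Negative the lowest population as in the other replicates.

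Other features of the libraries are given beside this difference. The replicate 3 libraries have the lane codes 8 for High, 5 for Negative, 5 for Sublow and 0 for Low. The miR-290 to miR-295 cluster of pluripotent cells (6 of 8 names in the table) was listed at 0 in all replicate 3 libraries. miR-295-3p was also at 0 in replicate 1 of High, Sublow and Low, and at 395 to 928 RPM in the other 7 libraries. In these 3 replicate 1 libraries miR-10a-5p was at 332 RPM in High, 23.7 RPM in Sublow and 59.4 RPM in Low. The part of the lane code and of this cluster in the replicate 3 difference was not tested.

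Markers of other cell types that the sort could hold were measured in the same libraries. The mesenchymal and smooth muscle list (11 of 13 names in the table) summed to 28.5 to 91.5 RPM in the replicate 3 libraries of the sorted populations, and to 44.9 to 163 RPM in replicates 1 and 2. Of its defining markers, miR-145-5p was at 0 in all libraries and miR-143-3p was at 6.87 to 16.2 RPM in replicate 3 and 6.63 to 53.0 RPM in replicates 1 and 2. The endothelial list (2 of 4 names in the table) summed to 0.81 to 12.7 RPM in replicate 3 and to 0 to 17.1 RPM in replicates 1 and 2, with miR-126-3p at 0 in all replicate 3 libraries.

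The haematopoietic list (5 of 7 names in the table) rested on miR-155-5p, miR-150-5p and miR-142-5p, with miR-142-3p at 0 throughout and miR-223-3p at most 3.35 RPM. In replicates 1, 2 and 3 it summed to 67.3, 14.98 and 11.1 RPM in High, 13.5, 6.51 and 103 RPM in Negative, 118, 11.7 and 161 RPM in Sublow and 213, 42.4 and 143 RPM in Low. Replicate 3 thus had the highest sum in Negative and Sublow, but not in High or Low. In Negative, miR-155-5p was at 13.5, 6.51 and 46.7 RPM, miR-150-5p at 0, 0 and 39.4 RPM and miR-142-5p at 0, 0 and 16.0 RPM. The part of these markers in the replicate 3 difference of miR-10a-5p and miR-196a-5p was not tested.

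The erythroid list (2 of 4 names in the table) was at 0 in all libraries except 1 Sublow library, replicate 3, at 1.67 RPM. The gut epithelial and endocrine lists covered about the same range in replicate 3 as in replicates 1 and 2, at 222814 to 559871 RPM against 197246 to 558913 RPM and at 8405 to 187496 RPM against 7057 to 215236 RPM.

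The endocrine list (miR-375, miR-7 and miR-182/183, 5 of 5 in the table) followed the populations, at 187496 to 215236 RPM in High, 7057 to 8405 RPM in Negative, 34416 to 35241 RPM in Sublow and 96739 to 120642 RPM in Low. High was the highest population in this list and in miR-10a-5p of replicates 1 and 2, whereas miR-10b-5p was highest in Low. In replicate 3 the list was again higher in High than in Low (187496 against 96739 RPM). There miR-10a-5p was lower in High than in Low (846 against 1199 RPM). The part of these endocrine markers in the miR-10a-5p level of High was not tested.

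miR-196a-5p was listed almost only in replicate 3. Its hairpin 1 entry was at 26.2 RPM in High, 10.5 RPM in Negative, 131 RPM in Sublow and 76.5 RPM in Low in replicate 3, and at 0 in every other library. Its hairpin 2 entry was at 35.7 RPM in High, 16.2 RPM in Negative, 160 RPM in Sublow and 101 RPM in Low in replicate 3. Outside replicate 3 it was above 0 in 2 libraries, High replicate 1 (1.60 RPM) and Sublow replicate 1 (0.66 RPM), and at 0 in both Non-sorted libraries. Both entries passed the filter only through the replicate 3 libraries.

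In replicate 3 the order of populations for miR-196a-5p was Sublow, Low, High and Negative, in both entries, which differs from that of miR-10a-5p, where Low was highest and High exceeded Sublow. With 1 library a population this order has no replicate check. Over all libraries no comparison of either entry passed in limma (adjusted p from 0.712 to 0.969 for hairpin 1 and from 0.700 to 0.996 for hairpin 2, 8 tests each). The hairpin 1 entry was 0.652 to 0.816 times the hairpin 2 entry in the replicate 3 libraries, although the mature sequences are the same.

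The 0 values of miR-196a-5p are limits, not absences. The smallest value listed above 0 was 0.76 RPM in High replicate 1 and 0.62 RPM in Sublow replicate 1, the libraries where the hairpin 2 entry appeared, and 1.98 to 3.48 RPM in the other replicate 1 and 2 libraries of the sorted populations. The replicate 3 values of 10.5 to 160 RPM are all above these limits, so a level like that of replicate 3 would have been listed in those libraries.

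miR-10a-3p, the arm of the miR-10a hairpin that accumulates less, was at 3.95, 8.01 and 11.6 RPM in High replicates 1, 2 and 3. It was at 0, 0 and 2.06 RPM in Negative, at 1.16, 0 and 12.4 RPM in Sublow and at 0, 0 and 14.04 RPM in Low, and at 0 in both Non-sorted libraries. It was thus listed in all High libraries, in all replicate 3 libraries and in Sublow replicate 1, at a far lower level than miR-10a-5p. None of its 8 tests passed in limma (adjusted p from 0.0763 to 0.976).

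The balance of the 2 seed-sharing copies was read within each library, which does not depend on the library's total. Both are 23 bases long. The ratio of miR-10a-5p to miR-10b-5p was 1.06, 1.37 and 3.17 in High replicates 1, 2 and 3, 0.201, 0.210 and 2.01 in Negative, 0.124, 0.162 and 3.23 in Sublow and 0.128, 0.122 and 2.12 in Low. In the Non-sorted libraries it was 0.338 and 0.403. miR-10b-5p thus exceeded miR-10a-5p in replicates 1 and 2 of Negative, Sublow and Low and in Non-sorted cells, and miR-10a-5p exceeded miR-10b-5p in High and in all of replicate 3.

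**Figure D4:**
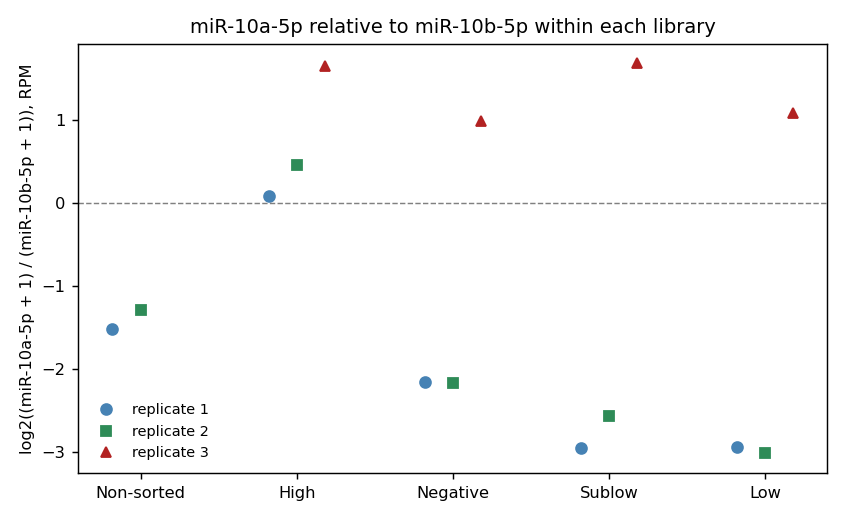
Log2 ratio of miR-10a-5p to miR-10b-5p (RPM, pseudocount 1) in each library of Non-sorted, High, Negative, Sublow and Low cells, the symbol giving the replicate number. All High libraries and all replicate 3 libraries lie above the dashed line of equal levels, and the other libraries lie below it.

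Over all sorted libraries no difference in the ratio among populations passed (F = 0.831, p = 0.456, adjusted p = 0.456, exact permutation test over 369600 assignments, n = 3 each, 2 ratios tested). With replicates 1 and 2 alone, a restriction chosen after the values were seen, the exact permutation test gave F = 121 and adjusted p = 0.0190. The replicate in which miR-10a-5p is high was left out there, so this result is a description only. The ratio of miR-10a-5p to miR-196a-5p, a 22-base miRNA, had F = 3.89 and p = 0.0585, or adjusted p = 0.117, in the same exact permutation test over all sorted libraries. Where miR-196a-5p is at 0, as in 6 of the 8 sorted libraries of replicates 1 and 2, this ratio is set by miR-10a-5p and the pseudocount.

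Start positions set the seed, and the miR-10 members often had the start moved by 1 base. Some entries carry the suffix +1, read here as a start 1 base downstream of the annotated one, since the header does not define it. Such a form of miR-10a or miR-10b has the seed CCCUGUA instead of ACCCUGU. The +1 form of miR-10a-5p was at 245, 250.4 and 626 RPM in High replicates 1, 2 and 3, at 5.48, 8.14 and 64.7 RPM in Negative, at 13.4, 16.6 and 489 RPM in Sublow and at 39.6, 77.1 and 684 RPM in Low. It therefore showed the replicate 3 difference as well.

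As a share of the annotated start plus the +1 form, the +1 form of miR-10a-5p made up 23.5 to 50.7% (median 40.1%) over the 14 libraries, and that of miR-10b-5p 14.2 to 23.9% (median 19.7%). miR-10a-5p had the higher share in 14 of 14 libraries. By population the share of miR-10a-5p was 40.7 ± 3.12% in High, 39.2 ± 3.998% in Negative, 40.3 ± 4.16% in Sublow and 42.3 ± 7.502% in Low (SD, n = 3 each), differences smaller than the spread. For miR-10b-5p it was 21.9 ± 1.78% in High, 18.8 ± 3.12% in Negative, 19.0 ± 1.51% in Sublow and 17.6 ± 2.98% in Low. In Non-sorted cells the shares were 34.0 ± 14.9% for miR-10a-5p and 20.8 ± 1.23% for miR-10b-5p (SD, n = 2). Over all 275 tested entries at the annotated start the median share was 2.72%, and 10 entries had a higher share than miR-10a-5p and 21 a higher one than miR-10b-5p.

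**Figure D5:**
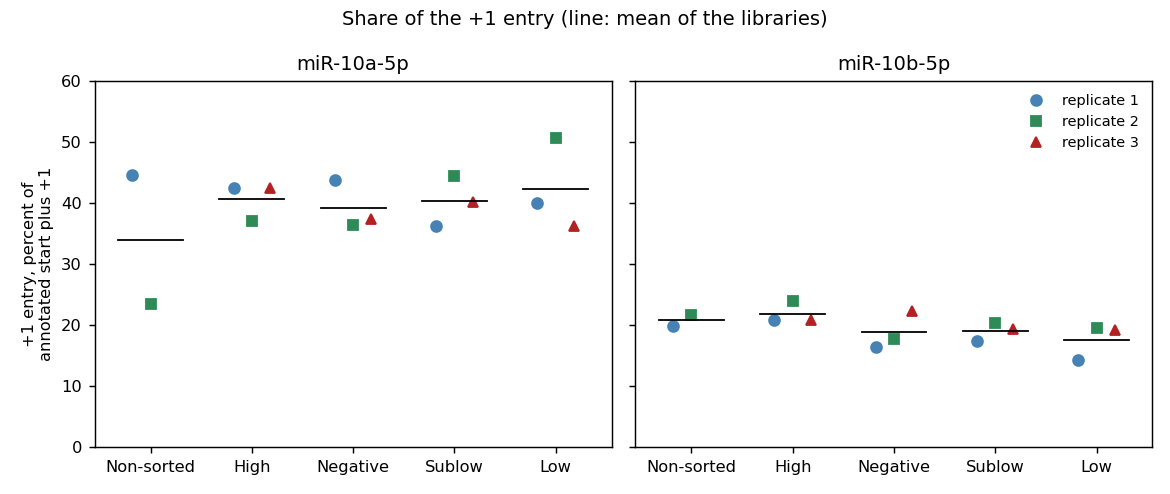
Share of the +1 form of miR-10a-5p and miR-10b-5p, in percent of the annotated start plus the +1 form, in each library of Non-sorted, High, Negative, Sublow and Low cells, with a line at the group mean. The share of miR-10a-5p lies between 23.5 and 50.7% and that of miR-10b-5p between 14.2 and 23.9%, and replicate 3 does not stand apart in either.

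The remaining shifted forms were rare. The -1 form of miR-10a-5p was above 0 in all replicate 3 libraries, at 12.7 RPM in High, 1 RPM in Negative, 11.4 RPM in Sublow and 10.4 RPM in Low. Of the libraries outside replicate 3, it was listed only in High replicate 1, at 2.38 RPM. Of 18 shifted forms below the filter, 16 were listed above 0 in at least 1 library, at no more than 12.9 RPM, and 18 of their 25 values above 0 were in replicate 3 libraries.

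The relatives of miR-10 outside the Hox clusters, miR-99a-5p and miR-99b-5p, were read by population and replicate number. For miR-99b-5p, replicate 3 was the lowest library in High, Negative and Low and not the highest in any sorted population. For miR-99a-5p, replicate 3 was the highest library in High, at 8.46 RPM, and the lowest in Sublow and Low. miR-99b-5p was at 472, 461 and 359 RPM in High, at 18.8, 18.9 and 3.56 RPM in Negative, at 57.9, 40.2 and 41.5 RPM in Sublow and at 335, 288 and 228 RPM in Low. Both relatives differed among the sorted populations and both were lower in Negative than in Low, at log2 differences of -4.53 for miR-99b-5p and -3.96 for miR-99a-5p (adjusted p = 4.95e-06 and 9.38e-05, limma). miR-99b-5p was higher in High than in Sublow by 3.19 (adjusted p = 1.42e-04). Between High and Low the differences were 0.61 for miR-99b-5p and -1.34 for miR-99a-5p (adjusted p = 0.373 and 0.114). The last member of this list, miR-100-5p, was above 0 in 1 library, High replicate 1, at 1.12 RPM.

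Of the 8 other mature miRNAs of the Hox clusters looked for, 3 were in the table. Those were miR-10a-3p, described above, miR-196b-5p at 0 in all libraries, and miR-615-3p, which lies in the HoxC cluster and was listed only in High replicate 1, at 2.83 RPM. Of these, 1 was tested and 0 passed in any comparison in limma, as none had an unadjusted p under 0.05.

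The miRNAs whose levels ran most like each member were named by Pearson's r of log2(RPM + 1) over the 14 libraries, among 248 other miRNAs. The libraries share populations, depth and fixed totals, so r is a description. For miR-10b-5p these were miR-146b-5p (0.987), miR-191-5p (0.961), miR-181d-5p (0.956), miR-200c-3p (0.950) and miR-342-5p (0.950). All 5 had their highest mean in Low and a lower mean in Negative than in any other sorted population. miR-146b-5p, for example, averaged 247 RPM in High, 87.3 RPM in Negative, 185 RPM in Sublow and 334 RPM in Low.

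For miR-10a-5p the closest were miR-486-5p (0.821), miR-3107-5p (0.820), miR-146a-5p (0.814), miR-30c-2-3p (0.782) and miR-30d-5p (0.770). Of these, miR-486-5p, which is abundant in red blood cells, had a replicate 3 difference of 0.95 and miR-146a-5p, a miRNA induced in innate immune signalling, one of 0.90, against 3.40 for miR-10a-5p. The values of miR-486-5p and miR-3107-5p were nearly the same in every library, both at 38.33 RPM in High replicate 3, for example. They therefore do not count as separate likenesses, here or for miR-196a-5p. miR-10a-5p had a lower r with miR-10b-5p (0.659) than with either miR-196a-5p entry (0.737 for hairpin 1 and 0.767 for hairpin 2). Since miR-196a-5p was listed almost only in replicate 3, its r with miR-10a-5p largely restates the replicate 3 difference. Both miR-196a-5p entries stand for the same mature miRNA. For the miR-196a-5p entries no other miRNA came above 0.651, and miR-3107-5p, miR-486-5p and miR-484 led for both. miR-10b-5p and miR-196a-5p had r of 0.240 for hairpin 1 and 0.261 for hairpin 2.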

How the data were processed

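The authors deposited 1 table of values in RPM over miRNA entries (each column sums to 1000000) for 2030 entries in 14 small RNA libraries, prepared with a TriLink CleanTag kit per the labels' protocols and with genome build mm9 per the submitters' processing notes. The aligner and how reads were counted are not named in those sources. Columns were matched to samples by the labels, and 0 columns were left unmapped. Because only 70.6 to 85.6% of the low values of a library were whole numbers of reads within 0.1 read, no count test was run.

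The 588 entries that reached 10 in 3 or more libraries, 313 of them shifted, were tested as log2(value + 1) with limma 3.58.1 in R 4.3.3 (5 groups, empirical Bayes with a mean-variance trend, two-sided, Benjamini-Hochberg adjustment over the 588 entries, threshold 0.05). The procedure was tested on simulated data with the same spread and depth in all libraries, changes in High only, and no replicate or lane difference. That test does not show how the fit behaves where replicates of a population differ as widely as for miR-10a-5p. Libraries of a replicate number share an unexplained code in the labels. The numbers were taken to pair the libraries where the deviations of every same-numbered pair correlated above 0.1, which held for Sublow vs Low (0.387, 0.713 and 0.628) and High vs Sublow (0.58, 0.601 and 0.375), and there the block is given beside a result it changes. Within-library ratios were tested by an exact permutation of F, adjusted over the 2 ratios. Figures used matplotlib 3.10.9 in Python 3.11.15. Sequences and gene neighbours are from RefSeq tables of assembly GRCm38.p6, and no coordinates are given because the builds differ. Named were the members, their shifted forms, the list members past the filter and, per member, the 5 miRNAs with the highest r. The members and lists were chosen with earlier results of these data known. Alternatives were another scaling, pseudocount, filter or entry set, a lane-code term, a replicate block and leaving out libraries.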

Additional observations from a re-analysis of the deposited data

How the results depend on the processing

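The miR-10b-5p F test over the 4 sorted populations and its differences of Negative from Low, Sublow from Low, High from Negative and Negative from Sublow kept their direction and their call under all 26 alternatives. Of 5 tested members, the number called in High vs Low was 0 instead of 1 after median-ratio rescaling, with quantile normalization, with no filter and with a lane-code term, and 0 to 1 when 1 library was left out. In High vs Sublow it was 0 instead of 1 after rescaling, with no filter, with a lane-code term and in the libraries with miR-295-3p at 0, and 0 to 2 when 1 library was left out. In High vs Negative it was 1 instead of 2 with a lane-code term and in the libraries with miR-295-3p at 0, 1 to 2 when 1 library was left out, and 3 with only the compared groups fitted, when miR-10a-3p was also called (adjusted p = 0.0197, limma). It was 1 to 2 with 1 library left out for the F test and for Negative vs Low, the calls being gained without Negative replicate 3 or Sublow replicate 3. The restrictions to replicates 1 and 2 and to libraries with miR-295-3p at 0 were chosen after seeing the data.

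With replicates 1 and 2 only, 2 members were called for the F test, in Negative vs Low and in Sublow vs Low, against 1 each over all libraries. Of all entries, 345, 325 and 142 were called there in the same order, with 543 past the filter. Over all libraries these counts were 425, 388 and 204 of 588. miR-10a-3p and both miR-196a-5p entries reached 10 RPM in 0 libraries of replicates 1 and 2, so they were not tested in that setting. There the ratio of miR-10a-5p to miR-10b-5p had F = 121 and that to miR-196a-5p F = 14.8 (adjusted p = 0.0190 each, exact permutation test). In these libraries miR-196a-5p is at 0 in 6 of 8, so the ratio is set by miR-10a-5p and the pseudocount. The ratio to miR-196a-5p, with F = 3.89 over all libraries, had F = 27.4 (adjusted p = 6.49e-04) with pseudocount 10, and F = 2.61 to 7.91 (adjusted p from 0.0269 to 0.271) when 1 library was left out. It passed without High replicate 3.

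Differences of miR-10a-5p that turned were, with a lane-code term, Negative vs Low (0.63), Sublow vs Low (1.26), High vs Negative (-0.31) and High vs Sublow (-0.94). With 1 library left out, Sublow vs Low ran from -2.93 to 0.11 (without Low replicate 3), Negative vs Sublow from -2.72 to 0.037 (without Sublow replicate 3) and Non-sorted vs Negative from -0.52 (without Negative replicate 1) to 1.36, with -0.055 without Negative replicate 2 or Non-sorted replicate 2. Non-sorted vs Negative was -0.033 with quantile normalization. The cause was not tested.

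Outside Sublow vs Low and High vs Sublow the replicate numbers did not count as a pairing. Deviations of same-numbered libraries correlated at -0.354 to 0.776, and 8 of 12 sorted libraries correlated best with their own number. With a replicate block, 2 members each were called in the F test, Negative vs Low and High vs Sublow. miR-10a-5p was added there (F = 17.99, adjusted p = 5.19e-04, 0.00183 and 0.00377 in that order, limma). In High vs Negative 3 were called, with miR-10a-3p added (adjusted p = 0.0132), and no other member call changed. Of all entries, 434 passed the F test and 396 Negative vs Low. The ratio of miR-10a-5p to miR-196a-5p had F = 17.3 (adjusted p = 0.00694, exact permutation test within blocks).

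Counts of all entries called moved by over 1.5 times under the settings named here. With annotated-start entries only, fewer entries were tested, and the counts were 191 for the F test (425 over all entries), 92 in High vs Low (165), 176 in Negative vs Low (388), 105 in Sublow vs Low (204), 168 in High vs Negative (390), 149 in High vs Sublow (297) and 108 in Negative vs Sublow (209). With a filter of 50, 262 passed the F test, 255 in Negative vs Low and 236 in High vs Negative. With a lane-code term the counts were 130 in Sublow vs Low, 239 in High vs Negative and 159 in High vs Sublow. With replicates 1 and 2 only, 85 passed in High vs Low. In libraries with miR-295-3p at 0, 129 passed in Negative vs Sublow. With only the compared groups fitted, 9 passed in Non-sorted vs Negative (22). Depth limits the low members: a value under 0.62 to 5.55 RPM, depending on the library, is listed as 0.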
